A study of Mus musculus with 6 samples.

Results

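The 6 genes studied here, for digestive enzymes and a cofactor, are best known from the pancreas. Colipase (*Clps*) and *Pnliprp2* were higher in all 3 GSK503-treated mice than in any control mouse. *Pnlip* and *Cel* were instead found almost wholly in 2 of the 6 libraries. So were 6 of 15 acinar genes, but these 6 were picked for values below 0.1 in the other 4 libraries. *Cela1* was present at a like level in every mouse. These 6 genes, *Clps*, *Pnliprp1*, *Pnliprp2*, *Pnlip*, *Cela1* and *Cel*, were taken by name from the 18049 genes of the deposited table. They were chosen by their levels in these same mice and by the difference between the groups, so the differences between the groups are given as a description, and nothing is drawn from a p-value of these genes. *Cela1* encodes an elastase, a protein-cutting enzyme, and is not a lipase, and *Clps* encodes a cofactor, so that 4 of the 6 genes encode members of lipase families.

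The samples were colonic crypts of mice that serve as a model of Lynch syndrome. All 6 mice carried Villin-Cre, which acts in the gut epithelium, a floxed allele, and a knocked-in *TgfβRII* gene with a humanized sequence, and all were placed on a Western-style diet at 8 weeks of age. The 3 control mice received 20% captisol in PBS as vehicle. The 3 GSK503 mice received 200 μg/kg of GSK503, an inhibitor of the histone methyltransferase EZH2, in PBS over 9 weeks. The methods name captisol for the control mice only, so captisol and the treatment cannot be told apart either. The age of each mouse at collection is not given in the sources used here. Total RNA from each mouse gave 1 library. Values are in TMM-scaled CPM, that is, estimated read counts per gene relative to a library size that was adjusted with the trimmed mean of M values.

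In the pancreas, acinar cells make lipases together with proteases and amylase and release them into the gut lumen, where fat is digested. Pancreatic triglyceride lipase needs colipase to hold it on droplets that are coated with bile salts. Lipase-related proteins of the same family, and bile-salt-stimulated lipase, act on other lipids, and the fatty acids and monoglycerides that are released are taken up mainly by enterocytes of the small intestine. The colon is not a known site of fat digestion, which is why the genes made by the crypts were set beside genes that are known mainly from acinar cells.

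The library totals estimated from the deposited values were between 108162848 and 135085027 counts, and a count of 3, used as the floor, came to between 0.0228 and 0.0271 TMM-scaled CPM. *Krt8*, *Epcam* and *Cldn7*, which mark epithelium, summed to 6736 to 7748 among control mice and 7254 to 8512 among GSK503 mice, and limma called 0 of the 3. Sex-linked genes separated the groups. *Xist* was between 825 and 1236 in the GSK503 mice and at most 0.936 in the control mice, and each of 4 Y-linked genes was at least 42.5 in the control mice and at most 1.08 in the GSK503 mice. For every difference below, the sex marked by these genes and the treatment cannot be told apart. Smooth muscle genes summed to 20.9, 90.1 and 46.2 in control mice 1, 2 and 3, against 4.52, 4.26 and 122 in GSK503 mice 1, 2 and 3, so the level of these genes differed between libraries within a group.

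*Clps* (ENSMUSG00000024225, GRCm39 chr17:28777123-28787857, minus strand) encodes colipase, the small protein that anchors pancreatic lipase at the surface of fat droplets. It was measured at 3.96, 3.78 and 1.96 TMM-scaled CPM in control mice 1, 2 and 3, against 11.7, 18.3 and 25.9 in GSK503 mice 1, 2 and 3. The groups did not overlap, and the lowest GSK503 mouse lay well above the highest control mouse. These values rest on 520, 418 and 249 estimated counts in the control group and on 1376, 2295 and 3117 in the GSK503 group. The means were 3.23 ± 1.11 (SD, n = 3) and 18.6 ± 7.14 (SD, n = 3), a ratio of 5.76 between mean levels. On the log2(value + 0.1) scale, used for every log2 difference here, the difference was 2.48 with an SE of 0.33. It was rank 18 from the top among the 16670 genes that entered the fit.

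*Pnliprp2* (ENSMUSG00000025091, chr19:58748118-58765966, plus strand) encodes a relative of pancreatic lipase that also cleaves galactolipids, the main lipids of plant chloroplasts, and phospholipids. Its levels were 8.24, 1.32 and 1.62 TMM-scaled CPM in control mice 1, 2 and 3, against 58.7, 87.6 and 80.0 in GSK503 mice 1, 2 and 3. Here, too, the groups did not overlap, and control mouse 1 stood above the other control mice while GSK503 mouse 1 was the lowest of its group. The estimated counts were 146 to 1082 among control mice and 6927 to 10995 among GSK503 mice. Means of 3.73 ± 3.91 and 75.4 ± 15.0 (SD, n = 3 each) gave a ratio of 20.2. The log2 difference of 4.77 (SE 0.55) had rank 3 among the genes of the fit.

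**Figure D1:**
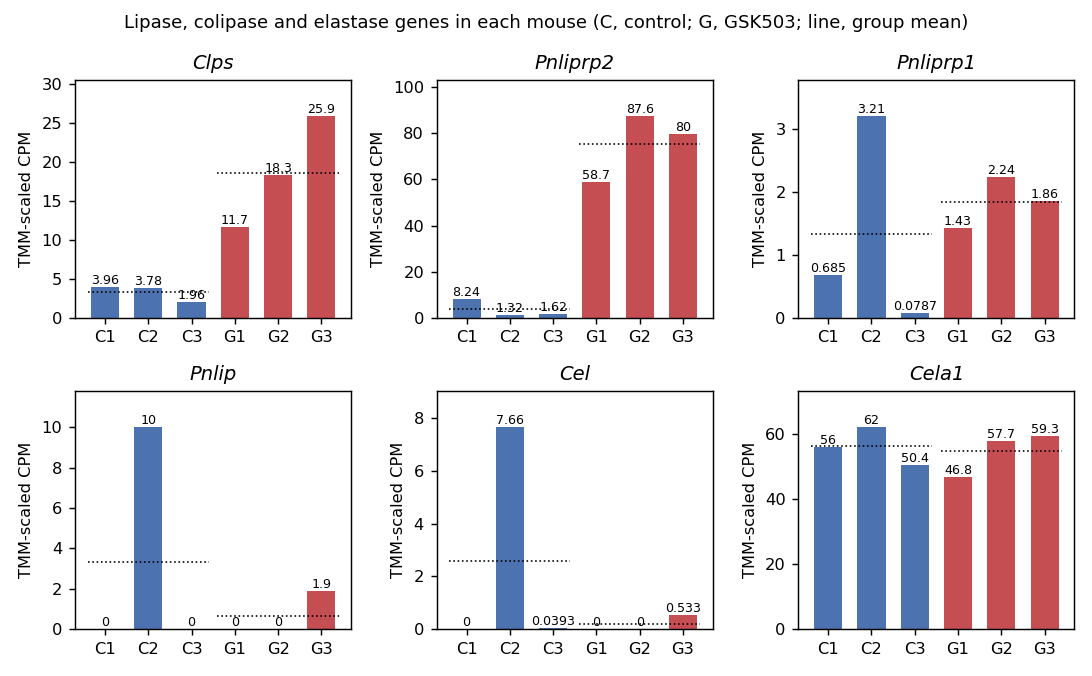
Level of each of the 6 genes in each mouse, in TMM-scaled CPM on linear axes that start at 0, with control mice in blue, GSK503 mice in red and the group mean as a dotted line. *Clps* and *Pnliprp2* lay higher in all 3 GSK503 mice, *Pnlip* and *Cel* were high in control mouse 2, and *Cela1* was between 46.8 and 62.0 in all mice.

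*Pnliprp1* (ENSMUSG00000042179, chr19:58717319-58732601, plus strand) encodes a protein of the same family with little known activity on triglycerides. It was measured at 0.685, 3.21 and 0.0787 TMM-scaled CPM in control mice 1, 2 and 3, against 1.43, 2.24 and 1.86 in GSK503 mice 1, 2 and 3. Control mouse 2 was the highest of all 6, so the groups overlapped, whereas control mouse 3, with 10 estimated counts, was the lowest. The means were 1.32 ± 1.66 and 1.84 ± 0.403 (SD, n = 3 each), and the log2 difference was 1.31 with an SE of 0.84. That value was set largely by single control mice, since it was 2.36 without control mouse 2 and 0.25 without control mouse 3. It was 0.77 with a pseudocount of 0.5.

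*Pnlip* (ENSMUSG00000046008, chr19:58640831-58670288, plus strand), the triglyceride lipase that digests most dietary fat, was listed at 0 in control mice 1 and 3 and in GSK503 mice 1 and 2. It was 10.003 TMM-scaled CPM in control mouse 2, from 1106 estimated counts, and 1.90 in GSK503 mouse 3, from 228 counts. *Cel* (ENSMUSG00000026818, chr2:28445807-28453415, minus strand), the bile-salt-stimulated lipase that cleaves cholesterol esters among other lipids, was also found almost wholly in control mouse 2 and GSK503 mouse 3. It was 7.66 in control mouse 2 (847 counts), 0.533 in GSK503 mouse 3 (64 counts), 0.0393 in control mouse 3 (5 counts) and 0 in the other mice. Neither gene reached 0.1 in 3 mice, so both were left out of the fit.

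*Cela1* (ENSMUSG00000023031, chr15:100572302-100585805, minus strand) encodes chymotrypsin-like elastase 1. It was found at 56.0, 62.0 and 50.4 TMM-scaled CPM in control mice 1, 2 and 3, against 46.8, 57.7 and 59.3 in GSK503 mice 1, 2 and 3. The groups overlapped, with means of 56.2 ± 5.81 and 54.6 ± 6.78 (SD, n = 3 each). The log2 difference of -0.04 (SE 0.11) was smaller than the spread between mice.

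Of the 6 genes, 4 entered the fit, and *Clps*, *Pnliprp2* and *Cela1* did so with more than 0.1 in every mouse. In the limma fit over all genes, 2 of the 4, *Clps* and *Pnliprp2*, passed an adjusted p of 0.05 as higher and 0 as lower, beside 0.498% of all genes tested as higher, 0.144% as lower and 0.642% in either direction. Since these genes were chosen with this comparison known, nothing is read from that count. Likewise, 2 of the 4 did not overlap between the groups, beside 9.84% of all genes tested with all GSK503 mice higher and 9.22% with all of them lower.

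The promoter sequences of 4 of the genes are shown next. *Pnlip* and *Pnliprp2* lie in a cluster with *Pnliprp1* and yet had different distributions over the mice, whereas *Cela1* and *Cel* lie on other chromosomes. Each sequence is 300 bases from RefSeq (table build GRCm38.p6), 250 before the start site and 50 from it on. All are printed 5′ to 3′ on the strand of the gene, and each matched GRCm39 at a single place. Capitals mark a TATA box, TATAAA, whose other strand reads TTTATA. They also mark the core of a site for GATA factors, which is AGATAA on one strand and reads TTATCT on the other. The last of the marked motifs is an E-box of the kind bound by bHLH factors, with the letters CAGGTG, or on the other strand CACCTG. Both strands were searched, and none of the matches overlapped. The RefSeq start site used for *Pnlip* lies inside the longer GENCODE span given for that gene. The table had an entry for 5 of the 6 genes, all but *Clps*. The first sequence is that of *Pnliprp2* at chr19:58747905-58748204 (plus strand), the second *Pnlip* at chr19:58658547-58658846 (plus strand), the next *Cela1* at chr15:100585752-100586051 (minus strand) and the last *Cel* at chr2:28453366-28453665 (minus strand).
Pnliprp2: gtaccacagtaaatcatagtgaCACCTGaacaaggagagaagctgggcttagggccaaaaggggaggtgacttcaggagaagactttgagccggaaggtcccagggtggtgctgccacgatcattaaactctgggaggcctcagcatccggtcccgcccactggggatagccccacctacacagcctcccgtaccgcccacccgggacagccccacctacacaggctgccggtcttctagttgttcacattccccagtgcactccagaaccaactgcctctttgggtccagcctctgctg
Pnlip: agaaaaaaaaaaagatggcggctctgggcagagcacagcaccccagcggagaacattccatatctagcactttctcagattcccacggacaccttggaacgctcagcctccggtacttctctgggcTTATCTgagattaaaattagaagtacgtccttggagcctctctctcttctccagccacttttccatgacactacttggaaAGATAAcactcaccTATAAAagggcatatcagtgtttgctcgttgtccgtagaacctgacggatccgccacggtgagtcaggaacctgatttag
Cela1: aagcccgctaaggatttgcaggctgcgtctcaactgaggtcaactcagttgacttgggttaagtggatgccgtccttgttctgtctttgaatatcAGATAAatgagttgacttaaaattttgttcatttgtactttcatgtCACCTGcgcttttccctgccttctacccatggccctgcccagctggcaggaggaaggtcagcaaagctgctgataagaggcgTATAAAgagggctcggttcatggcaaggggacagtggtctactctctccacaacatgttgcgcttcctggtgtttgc
Cel: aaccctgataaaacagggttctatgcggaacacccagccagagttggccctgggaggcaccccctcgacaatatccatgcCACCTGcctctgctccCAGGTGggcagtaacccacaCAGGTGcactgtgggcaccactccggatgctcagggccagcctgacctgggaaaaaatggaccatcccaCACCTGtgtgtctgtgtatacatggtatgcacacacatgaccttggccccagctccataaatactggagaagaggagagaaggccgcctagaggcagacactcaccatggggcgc

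The *Pnliprp2* promoter held 1 of these letter strings, CACCTG at position -228 from the start site. The *Pnlip* promoter held TATAAA at -30 and the GATA string at -124 and -44. In the *Cela1* promoter, TATAAA lay at -27, the GATA string at -155 and the E-box string at -109. The *Cel* promoter had the E-box string at -170, -154, -134 and -65. The *Pnliprp1* promoter, at chr19:58717069-58717368, held 0 of the 3 strings. Over all 32851 promoters of the table, the TATA string was found in 13.6%, the GATA string in 11.2% and the E-box string in 20.2%. These are matches of letters only, and binding of a factor was not measured here.

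To compare genes with each other, each level was divided by the length of the union of the gene's exons, which ranged from 716 bp for *Clps* to 4554 bp for *Pnliprp1*. In TMM-scaled CPM per kb, the control mice had the highest mean level for *Cela1*, at 24.3 ± 2.52, followed by *Clps* at 4.51 ± 1.55 and *Pnliprp2* at 2.32 ± 2.44 (SD, n = 3 each). *Clps* and *Pnliprp2* did not differ beyond their spread there. *Pnliprp1* was lowest in that order, at 0.291 ± 0.365, and the per-kb means of *Pnlip* and *Cel* came almost wholly from control mouse 2. In the GSK503 mice the order was *Pnliprp2* at 47.0 ± 9.32, *Clps* at 26.0 ± 9.98, *Cela1* at 23.7 ± 2.94 and *Pnliprp1* at 0.405 ± 0.0885. The per-kb level of *Clps* was thus within the spread of that of *Cela1* in the GSK503 mice and below it in the control mice.

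**Figure D2:**
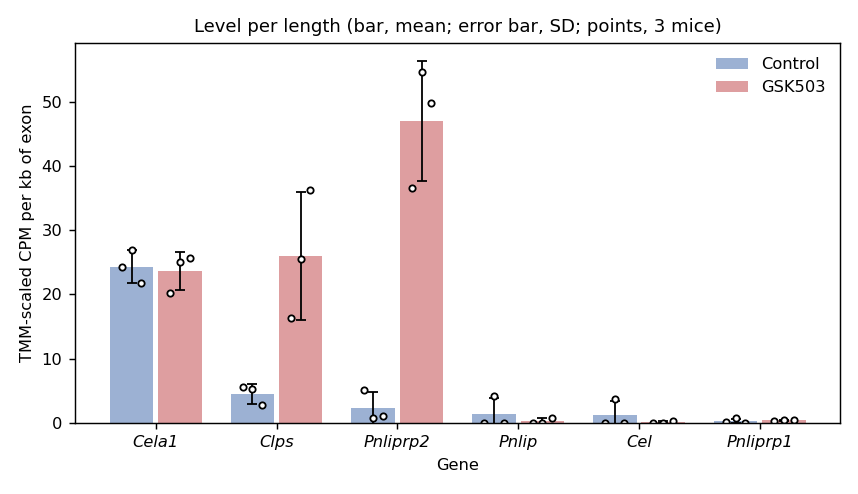
Level of the 6 genes per kb of exon in each mouse, in TMM-scaled CPM per kb, with control mice in blue and GSK503 mice in red. *Cela1* was near the same level in all mice (means 24.3 and 23.7), whereas *Pnliprp2* went from a mean of 2.32 in the control mice to 47.0 in the GSK503 mice.

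The 6 genes were then set beside a list of genes known from acinar cells. Of 26 listed genes, 15 were in the table. Among these, 6 stayed below 0.1 TMM-scaled CPM in 4 of the 6 libraries, namely *Prss2* and *Try4* (trypsinogens), *Ctrb1* (chymotrypsinogen), *Cpa1* and *Cpb1* (carboxypeptidases) and *Cela2a* (an elastase). All 6 were highest in control mouse 2 and second in GSK503 mouse 3. Their summed level was 0, 41.4 and 0.102 in control mice 1, 2 and 3, against 0.127, 0.0239 and 6.26 in GSK503 mice 1, 2 and 3. All 6 were listed at 0 in control mouse 1, and 3, 4 and 5 of them at 0 in control mouse 3, GSK503 mouse 1 and GSK503 mouse 2. *Prss2* and *Try4* are near-identical copies, so reads may be split between them.

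The level in control mouse 2 divided by that in GSK503 mouse 3 was between 4.65 and 8.54 for these 6 enzymes, with a median of 7.11. For *Pnlip* this ratio of levels was 5.27, with an exact 95% interval of 4.57 to 6.11 that covers counting error only. For *Cel* it was 14.4 (11.2 to 18.9). The 6 enzymes had been picked for their absence from the other 4 libraries, as *Pnlip* and *Cel* were also below 0.1 there, and genes of the list that were present in more libraries had other ratios, such as 0.226 for *Sycn*, 0.492 for *Spink1*, 0.619 for *Klk1* and 2.10 for *Ctrl*, another protease. The ratio was 1.72 for *Pnliprp1* and 1.05 for *Cela1*. *Clps* and *Pnliprp2* ran the other way, with ratios of 0.146 and 0.0165. In GSK503 mice 1 and 2, *Pnlip* was listed at 0, the 6 enzymes summed to 0.127 and 0.0239, and *Pnliprp2* was 58.7 and 87.6. The low sums there follow from how the 6 enzymes were picked. The part of RNA from the pancreas in the levels of any of these genes was not tested. Leaving out control mouse 2 and GSK503 mouse 3 together, an alternative added after the data had been seen, gave log2 differences of 2.35 for *Clps*, 4.24 for *Pnliprp2*, 2.34 for *Pnliprp1* and -0.03 for *Cela1*.

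**Figure D3:**
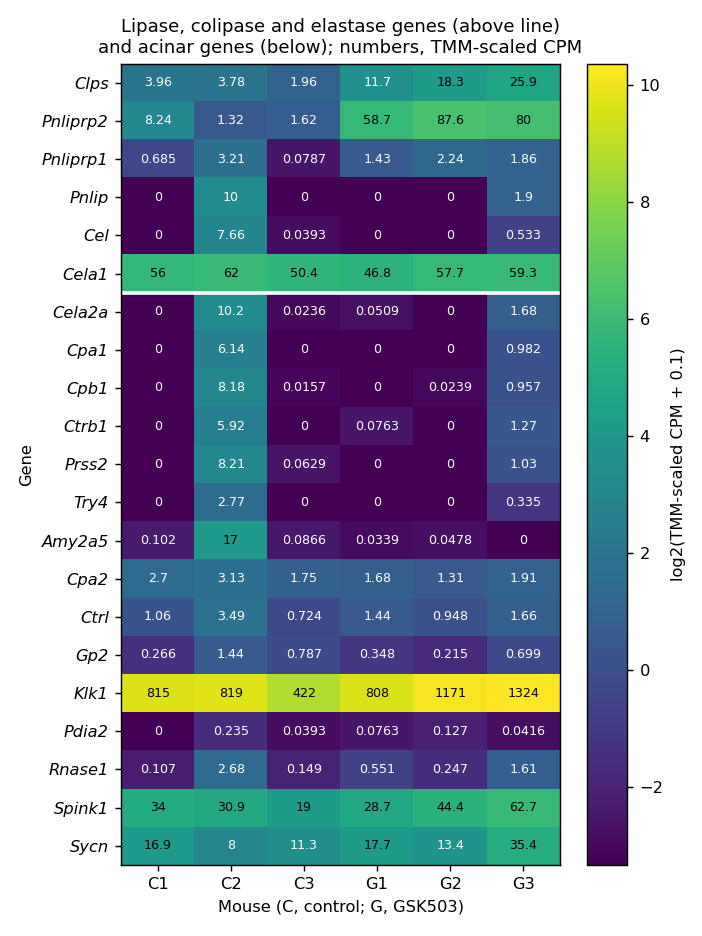
Each square is the level of 1 gene in 1 mouse, in TMM-scaled CPM, coloured on a log2 scale, with the 6 genes above the line and genes of the acinar list below it. *Pnlip*, *Cel* and the 6 enzymes picked for values below 0.1 elsewhere were high in control mouse 2 and next highest in GSK503 mouse 3. *Clps*, *Pnliprp2* and *Cela1* were present in all 6 mice.

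*Amy2a5*, a pancreatic amylase from a cluster of near-identical copies, was 17.0 in control mouse 2 but listed at 0 in GSK503 mouse 3, and it was between 0.0339 and 0.102 in the other mice. *Klk1*, *Spink1* and *Sycn* were not restricted to those 2 libraries, and 9 of the 15, *Amy2a5* included, reached 0.1 in at least 1 other library. *Klk1*, a tissue kallikrein, made up between 88.3% and 95.1% of the summed level of the list. It was measured at 815, 819 and 422 in control mice 1, 2 and 3, against 808, 1171 and 1324 in GSK503 mice 1, 2 and 3, so the groups overlapped. *Spink1*, a trypsin inhibitor, and *Sycn*, a zymogen granule protein, were present in all mice, also with overlap, and *Spink1* was between 19.0 and 62.7. Of the 15 genes, 7 were tested, 0 were called in either direction by limma or by limma-voom, and 3 had an unadjusted p below 0.05, as had 2223 of all 16670 genes tested (13.3%), the share to set beside each such count that follows. The median log2 difference of the 7 was 0.48, beside -0.01 over all genes tested. Of *Ins1*, *Ins2* and *Iapp*, which mark islets, 0 were in the table.

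Transcription factors of acinar cells were in part present in the crypts. *Bhlha15*, which encodes MIST1, a factor of secretory cells, was 6.25, 2.91 and 4.62 in control mice 1, 2 and 3, against 10.3, 14.4 and 11.3 in GSK503 mice 1, 2 and 3. The groups did not overlap, but the log2 difference of 1.41 (SE 0.26) had an adjusted p of 0.0505 in limma and 0.0492 in limma-voom, and between 0.0232 and 0.243 over all alternatives. *Nr5a2*, a nuclear receptor of both acinar and crypt cells, was 94.3 to 99.4 among control mice and 72.3 to 81.9 among GSK503 mice, with a log2 difference of -0.34 (SE 0.07) and a limma adjusted p of 0.0806. Of the 4 listed regulators, 3 were in the table and tested, and 0 were called by limma. 2 of the 3 had an unadjusted p below 0.05.

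Genes of the secretory cells of the crypt were set beside *Clps* and *Pnliprp2*. Goblet cells secrete mucus, and Paneth-type cells secrete antimicrobial proteins. Both lists were chosen with earlier results of these data known, so their counts are a description and nothing is drawn from them. All 9 listed goblet cell genes were higher in all 3 GSK503 mice, beside 9.84% of all genes tested. limma called 5 of them as higher, beside the 0.498% of all genes tested. The 5 were *Tff3*, *Clca1*, *Spink4*, *Spdef* and *Ang4*, with log2 differences between 0.68 for *Spdef* and 3.34 for *Ang4* and adjusted p-values between 0.00164 and 0.0459. The median over the 9 genes was 0.79, beside -0.01 over all genes. By limma-voom 6 were called. The count was 2, 1, 3, 1 and 3 when control mouse 2, control mouse 3 or GSK503 mouse 1, 2 or 3 was left out, and 1 without control mouse 2 and GSK503 mouse 3 together. Of the 9 Paneth genes, 7 were tested and 1, *Itln1* (intelectin 1), was called as higher. Its call was lost without control mouse 2 or 3 or any single GSK503 mouse, with limma adjusted p between 0.0609 and 0.198. The median over the 7 was 1.26, with 5 differences above 0 and 2 below, *Lyz1* at -0.67 and *Nupr1* at -0.09. The groups overlapped for *Lyz1*, *Nupr1* and *Mmp7*, and *Defa22* was listed at 0 in every mouse.

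*Itln1* was 38.7, 7.62 and 9.01 TMM-scaled CPM in control mice 1, 2 and 3, against 76.6, 129 and 129 in GSK503 mice 1, 2 and 3. *Ang4*, an antimicrobial ribonuclease, was 424, 59.2 and 118 in the control group and 1098, 1592 and 1750 in the GSK503 group, in the same order. Neither gene overlapped between the groups. In whole crypts, more cells of a type and more RNA per cell cannot be told apart, and the part of goblet or Paneth cell numbers in the levels of *Clps* and *Pnliprp2* was not tested.

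**Figure D4:**
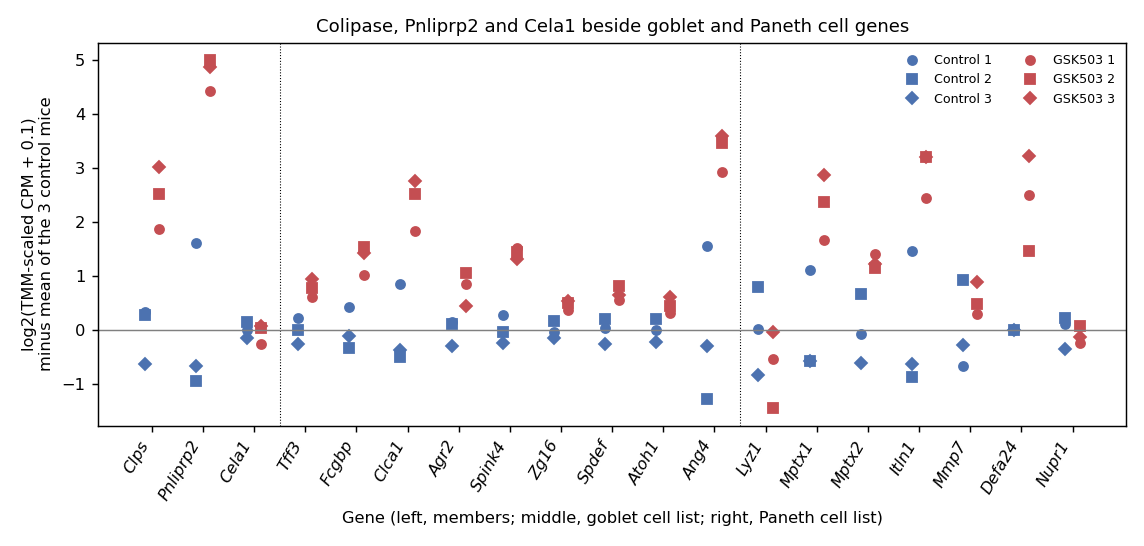
Difference of each mouse from the mean of the 3 control mice on the log2(TMM-scaled CPM + 0.1) scale, for *Clps*, *Pnliprp2* and *Cela1* and for the tested goblet and Paneth cell genes, with control mice in blue and GSK503 mice in red. *Clps*, *Pnliprp2* and all 9 goblet cell genes lay higher in all 3 GSK503 mice. *Cela1* overlapped, as did *Lyz1*, *Nupr1* and *Mmp7* of the Paneth list. The goblet and Paneth lists were chosen with earlier results of these data known.

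As a description, the genes of the fit that ran most like each member over the 6 mice were listed by Pearson's r on the log2 scale. With so few mice, such values are high for many genes. The genes listed for *Clps* and *Pnliprp2* also shared a difference between the groups with them. For *Clps* the genes were *Sytl2* (r = 0.999), *Rassf6* (r = 0.998) and *Anxa13* (r = 0.997), and *Sytl2* itself went from a mean of 134 to 188. For *Pnliprp2* they were *Evpl* (r = 0.998), *Pgam1* (r = 0.996) and *Ass1* (r = 0.995). *Pnliprp1*, led by control mouse 2, ran most like *LOC115488402* (r = 0.993), *Ranbp3* (r = 0.990) and *Snora69* (r = 0.988). *Cela1* ran most like *Rasgrp2* (r = 0.999), *Marchf5* (r = 0.987) and *Rnf25* (r = 0.984).

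The neighbourhood of the genes was examined next. *Pnlip*, *Pnliprp1* and *Pnliprp2* stand in this order on the plus strand of chromosome 19, over 125.14 kb, with gaps of 47.0 kb and 15.5 kb between them. *Pnliprp2* begins 15.5 kb past the end of *Pnliprp1*, and its mean level per kb in the GSK503 mice was 47.0 against 0.405 for *Pnliprp1*. Other genes that start within 250 kb of a member numbered 33 in the table and 32 in the fit. limma called 0 of the 32 in either direction, as did limma-voom, 3 had an unadjusted p below 0.05, and their median log2 difference was -0.01, the same as over all genes. Beside the lipase cluster these were *Hspa12a*, with a log2 difference of -0.31, *Eno4* and *Shtn1*. Of the 32, 1 was higher and 7 were lower in all 3 GSK503 mice, beside 9.84% and 9.22% of all genes tested. The higher one was *Galnt6* near *Cela1*, a mucin-type glycosyltransferase, with a log2 difference of 0.44 and a limma adjusted p of 0.175. Near *Cela1*, *Letmd1*, *Tfcp2*, *Smagp* and *Bin2* were lower, with differences between -0.31 and -0.15, and the median of the genes near *Cela1* was -0.15.

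Other lipases were compared as well. Of 23 listed, which include enzymes that act inside cells and in blood vessels, 19 were in the table and 18 were tested. limma called 0 as higher and 1 as lower, beside 0.144% of all genes tested as lower, and 2 had an unadjusted p below 0.05. The median log2 difference was -0.03. The single call was *Lpl*, lipoprotein lipase, which frees fatty acids from lipoproteins at the wall of blood vessels and is made by fat, muscle and macrophages. *Lpl* was 17.8, 14.6 and 16.9 TMM-scaled CPM in control mice 1, 2 and 3, against 8.41, 8.99 and 5.63 in GSK503 mice 1, 2 and 3, without overlap. Its log2 difference was -1.11 (SE 0.18), with a limma adjusted p of 0.0325, but the call was lost when control mouse 1, 2 or 3 or GSK503 mouse 1 or 2 was left out, with adjusted p between 0.0609 and 0.110. Without GSK503 mouse 3 it was 0.0225.

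Markers of cells that make *Lpl* were measured in the same libraries. The 9 macrophage genes summed to 89.9 to 124 among control mice and 62.0 to 116 among GSK503 mice, with 0 called and 1 with an unadjusted p below 0.05. All 9 had a log2 difference below 0, with a median of -0.49, as had all 6 smooth muscle genes, with a median of -1.88. GSK503 mouse 3, the lowest for *Lpl*, was the highest of its group for both the macrophage and the smooth muscle sum. *Cd14* was the largest part of the macrophage sum in every mouse. It was 60.6, 75.0 and 77.3 in control mice 1, 2 and 3, against 52.1, 54.1 and 49.2 in GSK503 mice 1, 2 and 3. *Cd14* was thus lowest in GSK503 mouse 3, where *Lyz2* was 30.9 against 1.59 and 1.65 in GSK503 mice 1 and 2. The adipocyte genes summed to 4.42 to 4.80 among control mice and 4.79 to 7.71 among GSK503 mice, with 0 of 4 tested called and 0 at an unadjusted p below 0.05. Without GSK503 mouse 3, 2 macrophage, 3 smooth muscle and 1 adipocyte genes were called, all as lower. The part of these cells in the level of *Lpl* was not tested. Lipases at 50 or more in a group, such as *Lipg* (endothelial lipase), *Liph* (a phospholipase), *Pnpla2* (the lipase that opens stored triglyceride) and *Daglb* (a diacylglycerol lipase), had log2 differences between -0.26 and 0.22.

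Cofactors and assembly factors of lipases other than colipase were also compared. Of 11 listed, 8 were in the table and tested, with 0 called by limma or limma-voom and 0 with an unadjusted p below 0.05. Their median log2 difference was 0.09. *Lmf1* and *Sel1l*, which help lipoprotein lipase to mature, had differences of 0.09 and 0.09, and *Abhd5*, the activator of *Pnpla2*, of 0.15.

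Genes for the uptake and repackaging of the products of fat digestion differed widely in level in the colonic crypts. Some, named here after their values had been seen, were low in both groups. *Cd36*, *Fabp1* and *Npc1l1* had means of 0.53, 0.52 and 0.20 in control mice and 0.65, 0.18 and 0.26 in GSK503 mice. *Mogat2* and *Mttp* had means of 2.68 and 3.95 in control mice and 2.93 and 3.04 in GSK503 mice. Of 25 listed, 24 were in the table and 22 were tested, with 0 called by limma or limma-voom and 5 with an unadjusted p below 0.05. The median log2 difference was 0.08. *Acsl5*, which activates fatty acids, was 187 to 216 among control mice and 211 to 229 among GSK503 mice. *Fabp2*, a fatty acid binding protein, was between 128 and 187 and between 117 and 203, and *Apob*, the structural protein of chylomicrons, between 136 and 166 and between 127 and 178. *Agpat2*, an enzyme of triglyceride synthesis, was higher in all 3 GSK503 mice with a log2 difference of 0.41, without passing the test. The groups overlapped for *Plin2*, *Plin3*, *Slc27a4*, *Sar1b*, *Dgat1*, *Dgat2*, *Scarb1*, *Cideb* and *Gpat3*, and *Tm6sf2*, which acts in lipoprotein assembly, was higher in all 3 GSK503 mice by 0.58. *Abcg5* and *Abcg8*, which form a pump that returns sterols to the lumen and are named here after their values had been seen, were lower in all 3 GSK503 mice, with log2 differences of -1.46 and -0.97. For *Abcg5* the limma adjusted p was 0.0525, and 0.0378 to 0.243 over the alternatives.

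Markers of some other cells were also compared, and they did not all stand highest in the same mouse. *Apoa4*, an apolipoprotein of small intestinal enterocytes that was picked here after its values had been seen, was 6.11 in control mouse 2, 0.0353 in GSK503 mouse 2 and 0 in the other mice. The 9 small intestine genes summed to 60.97, 60.2 and 38.8 in control mice 1, 2 and 3 and to 49.0 to 58.9 among GSK503 mice. Of these genes, 0 were called and 3 had an unadjusted p below 0.05. The 5 B cell genes summed to 26.4 in control mouse 2, against 9.75 and 3.77 in control mice 1 and 3 and between 1.11 and 3.52 in the GSK503 mice, with 0 called and 4 with an unadjusted p below 0.05, and all 5 had a log2 difference below 0, with a median of -1.98. Of the 6 smooth muscle genes, which summed highest in GSK503 mouse 3, 0 were called and 0 had an unadjusted p below 0.05. *Clps* and *Pnliprp2* in control mouse 2, at 3.78 and 1.32, were not the highest of the control mice.

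The size of the differences was examined under each alternative setting. Over the leave-one-out fits, the log2 difference was between 2.16 and 2.78 for *Clps*, between 4.30 and 5.57 for *Pnliprp2*, between 0.25 and 2.36 for *Pnliprp1* and between -0.12 and 0.06 for *Cela1*.

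**Figure D5:**
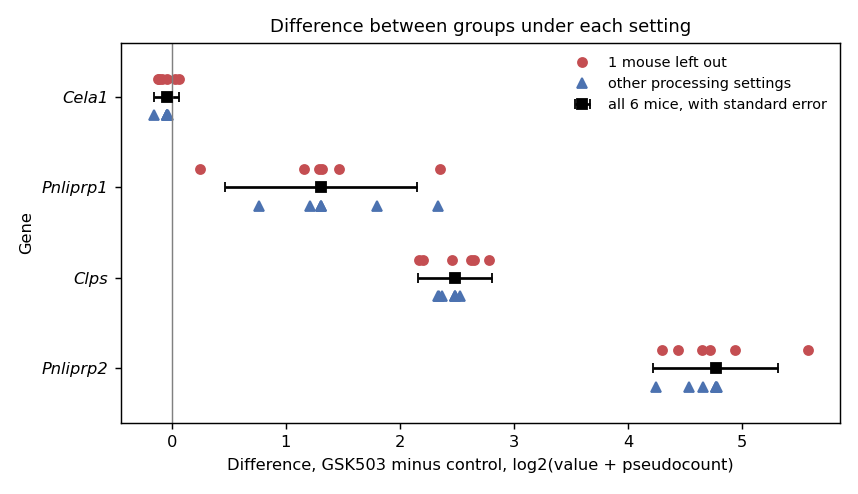
log2 difference between GSK503 and control mice for the 4 genes in the fit under each setting, where the main value has its SE as a bar, and the other marks are fits that leave out 1 mouse and fits with another processing setting. *Pnliprp2* stayed between 4.24 and 5.57 and *Clps* between 2.16 and 2.78 in the fits that left out mice, *Pnliprp1* spread from 0.25 to 2.36, and *Cela1* lay around 0.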

How the data were processed

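RNA-Seq was performed on colonic crypts of 3 control and 3 GSK503-treated mice, with 76 bp reads, and samples were grouped by their labels. Per the submitters' processing notes and the methods, the authors used STAR for alignment to GRCm39, RSEM for gene-level counts and TMM in edgeR for scaling; the gene annotation is not given in the sources used here. The deposited signal is thus an estimated count divided by a TMM-scaled library size, in TMM-scaled CPM, and not a raw count. Column sums were between 975566 and 1076042. Library totals were recovered from each library's smallest step, of which between 83.1% and 85.6% of values under 200 counts were whole multiples within 0.01; intervals and floors cover counting error only.

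limma 3.58.1 (R 4.3.3; lmFit, eBayes with an intensity trend) was run on log2(value + 0.1) for the 16670 genes that reached 0.1 in 3 or more mice (1379 did not), with Benjamini-Hochberg adjustment and a threshold of 0.05. It was tested on simulated data, in which genes varied independently and with a single dispersion. That test does not cover differences between whole libraries such as those seen here. The fit called 83 genes as higher and 24 as lower. The members and lists were chosen with earlier results of these data known. Genes named are the members, the 3 genes most like each, neighbours within 250 kb, defining cell type markers, and acinar, regulator, lipase, cofactor or absorption genes that were called or had a group mean of at least 10. Exceptions, chosen after their values were seen, are named as such. Alternatives were library size alone, a pseudocount of 0.5, no filter, limma-voom, no trend, a replicate block, and leaving out mice. For 17212 symbols (95.36%), 1 GENCODE gene matched, which gave positions and exon lengths. Whether replicates came from separate litters is not given. The p-values thus set the difference between the groups against the spread between these mice only. That difference includes any difference due to the sex marked by *Xist* and Y-linked genes. Organoid, single-cell and human data were not used here, and the name of the floxed allele is not reported here. Figures were drawn with matplotlib 3.10.9 in Python 3.11.15.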

Additional observations from a re-analysis of the deposited data

How the results depend on the processing

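With 3 mice a group, single libraries moved the number of calls. Leaving out each mouse in turn gave 20 to 116 genes higher (83 with all mice) and 7 to 100 lower (24). The counts higher and lower were 37 and 7 without control mouse 2, 40 and 9 without control mouse 3, 51 and 12 without GSK503 mouse 1, 20 and 9 without GSK503 mouse 2, and 116 and 100 without GSK503 mouse 3. Without control mouse 1, 15 were lower. Without control mouse 2 and GSK503 mouse 3 together there were 55 and 40. Without the intensity trend there were 9 and 7, with 0 members, 0 other lipases, 0 goblet and 0 Paneth genes. Scaling by library size alone gave 83 higher and 178 lower, so that 31.8% of calls were higher against 77.6%, moved the median log2 difference of all genes to -0.12, and called 2 acinar regulators, 1 fat absorption gene and 1 macrophage gene. limma-voom called 1 acinar regulator.

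Over the fits that left out mice, calls ranged from 1 to 2 for the members (from which nothing is drawn, as above), 0 to 1 for acinar regulators, other lipases, fat absorption, adipocyte and B cell genes, 1 to 4 for goblet, 0 to 2 for Paneth and macrophage, 0 to 3 for smooth muscle and 3 to 5 for sex-linked genes, of which fewer passed the filter without a control mouse. The difference of *Pnliprp1* was 0.25 to 2.36.

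The labels do not say whether same-numbered mice were paired. Correlations of their deviations were 0.032, -0.126 and -0.119, and some mice correlated better with another number. With 3 mice a group, these values cannot decide the question. A replicate block gave 23 genes higher and 10 lower, 1 member past the threshold (*Pnliprp2*), 0 other lipases, 2 goblet and 0 Paneth genes. The cause of these shifts was not tested. Values near the floor of 3 counts, such as those of *Cel* outside control mouse 2 and GSK503 mouse 3, cannot be compared at this depth.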
